A study of Mus musculus with 8 samples.

Results

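The nuclear-encoded genes of the respiratory chain were followed in sorted Paneth cells, the secretory cells at the base of small intestinal crypts that release lysozyme and defensins. Members were the rows of the count table whose symbol begins with Nduf, Cox4 to Cox8, Uqcr or Atp5 in the form of a chain subunit, together with the 4 Sdh genes, Cyc1 and Cycs. Atp5l and 8 rows marked as pseudogenes by the letters ps in their symbol were left out by the same rule. This gave 89 genes of the 53801 in the table, of which 40 belong to complex I, 4 to complex II, 9 to complex III, 19 to complex IV and 16 to complex V by their names, and 1 encodes cytochrome c.

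Complex I (NADH dehydrogenase) and complex II (succinate dehydrogenase) feed electrons into the mitochondrial inner membrane, complex III passes them to the small carrier cytochrome c, and complex IV (cytochrome c oxidase) hands them to oxygen. Complexes I, III and IV pump protons, and complex V (ATP synthase) uses the resulting gradient to make ATP. Complexes I, III, IV and V also hold protein encoded by the mitochondrial genome, whereas the whole of complex II is encoded in the nucleus. Paneth cells of the crypt are known for a glycolytic metabolism beside oxidative stem cells.

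The cells were viable, EpCAM+ and CD24+ and came from mice with the alleles Lgr5-EGFP-IRES-CreERT2, β-catGOF (an activated β-catenin) and Mll1 flox. The 4 controls were heterozygous for the Mll1 deletion (β-catGOF; Mll1+/-) and the 4 knockouts homozygous (β-catGOF; Mll1-/-), so the controls also carried the activated β-catenin and a single deleted copy of Mll1, the histone methyltransferase gene Kmt2a. The sample labels give the Mll1 genotype, and β-catGOF is taken from the study. The methods paragraph on the sort names Mll1 flox mice without β-catGOF, while the results text and the legends name it. Mice of 4 to 6 wk received 1 mg tamoxifen on 3 consecutive days and were analysed 10 d after induction, and 300 cells were sorted per sample. Because Cre is driven by the promoter of the stem cell gene Lgr5, a Paneth cell carries the deletions only where it descends from a recombined stem cell. The study states from staining that Mll1 was missing in the crypt cells, Paneth cells included, when they were sorted. It also describes that this Cre leaves a mosaic of recombined and adjacent non-recombined crypts. The gate given for the sort holds no marker of recombination, so the share of recombined cells in a library is not known.

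The libraries held between 13037832 and 14380240 counts on genes. The 9 Paneth cell markers examined, among them Lyz1, Mmp7 and Defa24, took between 39% and 57.2% of the counts in controls and between 41% and 60.5% in knockouts, so the markers of the labelled cell type were abundant in every library. Markers of goblet cells took between 0.905% and 1.46%, those of enterocytes at most 0.0314% and those of stromal and smooth muscle cells at most 0.00014% of any library. Kmt2a had 32.3 ± 10.9 normalized CPM (counts scaled to a common library size; SD, n = 4) in controls and 31 ± 5.55 (n = 4) in knockouts, and a count over all its exons does not show whether a floxed exon was removed. Knockout 3 stood apart from the other 7 libraries. Its 50 most abundant genes took 88.1% of the counts against 76.4% to 84.8% elsewhere, and counts of the mitochondrial genome took 2.04% against 3.26% to 8.78%. Values without this library are given beside a number of the genes and medians that it moved.

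The comparison asked whether loss of the second Mll1 copy altered the expression of these genes. No member passed the test. Of the 89 genes, 83 had enough counts for edgeR's quasi-likelihood test, which was fitted to all 13439 genes that passed the same filter, and a gene was called where its Benjamini-Hochberg adjusted p did not exceed 0.05 and its log2 fold change reached 0.5 in either direction. None of the 83 was called, and none had an adjusted p of at most 0.1, while 25 of all genes tested (0.186%) passed both thresholds and 38 (0.283%) had an adjusted p of at most 0.1. At an unadjusted p under 0.05, no member was higher and 1 was lower in knockouts, against 4.35% and 2.53% of all genes tested in these directions. The smallest adjusted p of a member was 0.67. DESeq2's Wald test and limma-voom also called none, with 1 and 4 members, respectively, at an unadjusted p under 0.05. The shares of all genes at that level were not determined for these tests, so the counts are not read further.

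Sequences upstream of the members were examined first, since the promoters of respiratory chain genes are known for sites of nuclear respiratory factor 1 (NRF1) and of ETS family factors such as GABP. Windows of 300 bases, 250 before and 50 from the RefSeq start of a gene on GRCm38.p6, were found for 68 of the 89 members. The NRF1 core GCGCNTGCG, read on either strand, lay in the window of 23 of these 68 (33.8%), compared with 7.1% of all 27025 genes in the RefSeq table and 15.6% of the 9176 of them that were tested here. For the ETS core CCGGAAG the numbers were 15 of 68 (22.1%), 9.9% and 20.9%, and for the YY1 core AAGATGG 11 of 68 (16.2%), 7.3% and 8.6%. The TATA box TATAAA was present in 6 of 68 (8.8%), compared with 15.7% of all genes and 9.1% of those tested. At least 1 of the NRF1 and ETS cores lay in 33 of the 68 windows (48.5%), in 15.6% of all and 32.9% of tested genes. A match of letters is a description of the window and not a site of binding. Complex V had the NRF1 core in 7 of 14 windows and complex IV in 1 of 13.

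Stretches of these windows that lie before the start and outside every annotated exon are shown for genes of each complex, because they show how these cores sit in promoters of the members. The levels of all genes shown except Ndufs5 follow. Capitals mark a match to the NRF1 or ETS core on either strand, and all are written 5′ to 3′ in the direction of the gene. All 7 genes lie on the minus strand of GRCm38.p6. The stretches are chr4:123718203-123718306 for Ndufs5 (complex I, NRF1 core 97 bases before the start), chr9:50603850-50603909 for Sdhd (complex II, ETS core 46 bases before the start), chr10:80406831-80406941 for Uqcr11 and chr4:116075072-116075190 for Uqcrh (complex III, ETS cores 66 and 10 bases before the start). For Cycs the stretch is chr6:50566570-50566642 (cytochrome c, NRF1 core 61 bases before the start), for Cox6a1 chr5:115348982-115349078 (complex IV, NRF1 core 116 bases before the start) and for Atp5e chr2:174464106-174464221 (complex V, ETS core 102 bases before the start).
Ndufs5: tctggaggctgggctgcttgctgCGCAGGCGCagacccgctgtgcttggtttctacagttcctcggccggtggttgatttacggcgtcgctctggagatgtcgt
Sdhd: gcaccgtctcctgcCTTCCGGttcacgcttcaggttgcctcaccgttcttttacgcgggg
Uqcr11: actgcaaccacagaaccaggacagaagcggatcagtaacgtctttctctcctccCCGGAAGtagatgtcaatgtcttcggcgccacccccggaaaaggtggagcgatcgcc
Uqcrh: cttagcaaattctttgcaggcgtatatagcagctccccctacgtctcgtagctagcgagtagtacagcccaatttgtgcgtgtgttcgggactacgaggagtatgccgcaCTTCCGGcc
Cycs: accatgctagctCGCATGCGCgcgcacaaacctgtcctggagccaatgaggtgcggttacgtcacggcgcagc
Cox6a1: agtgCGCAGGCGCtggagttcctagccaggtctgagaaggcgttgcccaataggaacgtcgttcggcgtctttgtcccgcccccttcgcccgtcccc
Atp5e: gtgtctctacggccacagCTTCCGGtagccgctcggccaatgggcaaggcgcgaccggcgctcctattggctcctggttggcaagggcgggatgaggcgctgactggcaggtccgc

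The 23 members with an NRF1 core, all of them tested, had a median log2 fold change between knockouts and controls of −0.21, and the 15 with an ETS core also −0.21. The 33 tested members with neither core in the window had a median of −0.14. Without knockout 3 these medians were −0.14, −0.18 and −0.04, and without normalization factors 0.06, 0.04 and 0.15, so that their sign depended on the scale. They are descriptions over genes that share libraries.

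Levels between genes were compared as normalized CPM per kilobase of exon, where the length counts every annotated exon of a gene. The highest levels were reached by small subunits of complexes III and IV and of the accessory part of complex I. Cox6b1, a subunit of complex IV that faces the intermembrane space, had a mean of 189.6 CPM per kb over the 8 libraries (range 124.5 to 224.3), and Cox8a, a small membrane subunit of complex IV, had 179 (128.8 to 224.6). Ndufa1, an accessory subunit of complex I, followed at 175.5 (155.1 to 211.2) and Uqcr10, a small subunit of complex III, at 162.1 (122.1 to 203.9). Ndufa2, another accessory subunit of complex I, was at 124.3 (113.1 to 150.3), with a log2 fold change between knockouts and controls of −0.14 (SE 0.15). The ranges of the first 4 genes overlap. Compared library by library, Cox6b1 was above Uqcr10 in all 8 libraries, and the other pairs of these genes changed order in at least 2 libraries. In complex V the highest levels were those of Atp5k (87.6, range 67.1 to 107.9) and Atp5e (85.2, range 76.7 to 109.5), which encode the e and epsilon subunits, and in complex II that of Sdhd (49.6, range 40.6 to 58.1), a membrane anchor. Cycs lay far below the complexes it connects, at 2.3 CPM per kb (0.796 to 2.99). Its exon length in the table was 3404 bases, against 708 for Cox6b1, so that a given number of counts gives a lower value per kb.

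**Figure D1:**
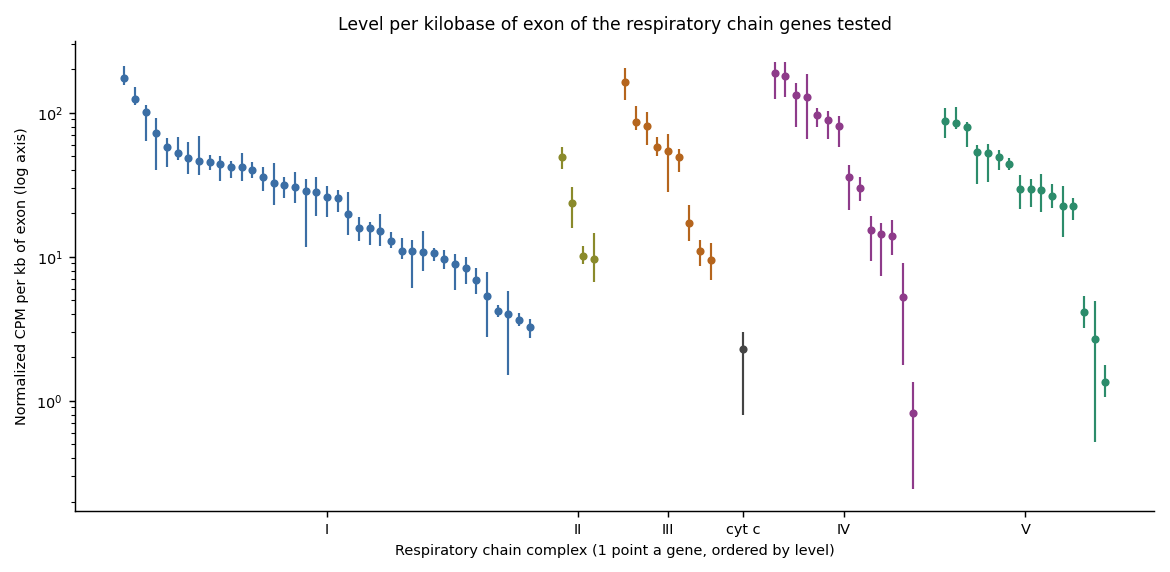
Mean level of each of the 83 genes tested in normalized CPM per kb of exon (log axis), with a line from the lowest to the highest of the 8 libraries, grouped and coloured by complex. Complexes I, III and IV each reach above 100 CPM per kb, and Cox6b2 at 0.82 is the lowest gene plotted.

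Where a subunit has isoforms, the cells carried mainly the general form. Cox4i1 had 148.5 ± 12.9 CPM in controls and 128.7 ± 20.1 in knockouts (SD, n = 4 each), whereas its counterpart Cox4i2, known from lung, had no count in any of the 8 libraries. Likewise Cox6a2 and Cox8b, the heart and muscle isoforms, and Cox8c, the testis isoform, had no count in any library. With no count, the limit of 3 counts corresponds to between 0.173 and 0.353 CPM in a library. Cox7b2, another testis isoform, had 7 counts in control 1 and none in the other libraries. Ndufa4l2, a paralogue of Ndufa4 that is known as a target of hypoxia signalling, had between 0 and 8 counts per library, and Ndufa4, which is now counted to complex IV in spite of its name, had 149.2 ± 4.73 CPM in controls and 130.8 ± 29.4 in knockouts. Of the 3 genes for the identical mature c subunit of the ATP synthase, Atp5g3 made up between 88.2% and 92.3% of the summed level per kb, Atp5g1 between 5.91% and 8.87% and Atp5g2 between 1.77% and 2.91% in the 8 libraries.

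The members varied less between mice than the bulk of the genes, but their levels were also higher. Their median level was 43.7 CPM, against 5.44 over all genes tested and 20.2 over the 4340 genes that averaged 10 CPM or more, which 73 members did. The comparisons of spread are therefore not matched for level. The median within-genotype SD of log2 levels was 0.22 over the 83 members, against 0.42 and 0.31 in these backgrounds. It was below 0.2 for 36 members and above 0.5 for 4. For 79 of the 83 genes the filter on low counts was met in all 8 libraries. Exceptions were Ndufb4c, Cox7a1 and Atp5s, which met it in 4 controls and 3 knockouts, and Cox6b2, which met it in 1 control and 3 knockouts. Exon bases were shared with another gene for 26 members, over 10% of them for 11, and the strand setting of the counting is not given in the sources used here. The 59 tested members without a shared base had a median log2 fold change of −0.20, and the 10 tested with over 10% shared bases one of −0.11, while without knockout 3 both medians were −0.11 (0.10 and 0.13 without normalization factors).

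**Figure D2:**
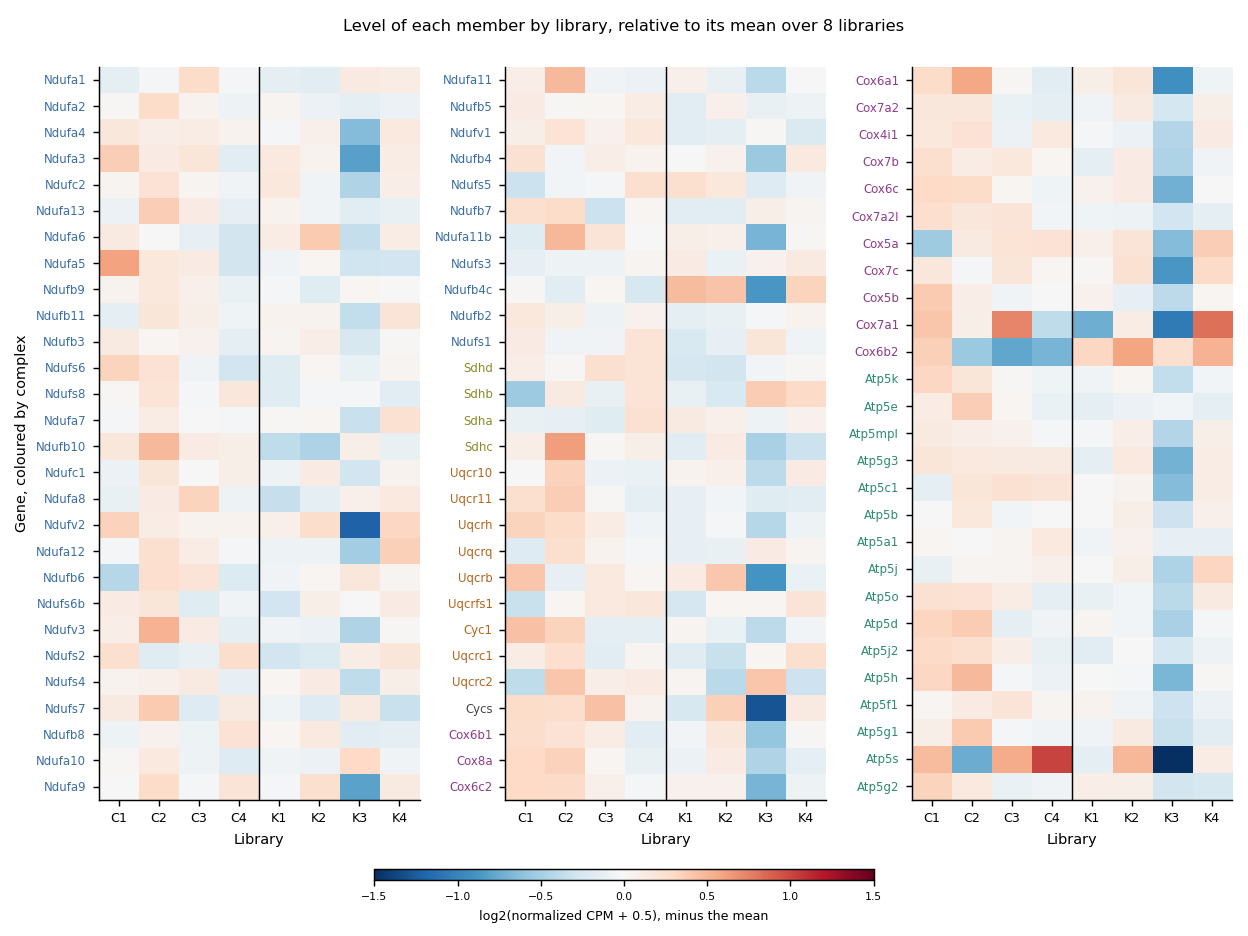
Level of each of the 83 genes tested in controls 1 to 4 (C1 to C4) and knockouts 1 to 4 (K1 to K4), as log2(normalized CPM + 0.5) minus the gene's mean over the 8 libraries, with symbols coloured by complex. Most rows are pale, and knockout 3 (K3) carries the darkest blue cells, for example Atp5s, Cycs and Ndufv2.

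On the main scale (trimmed mean of M-values, TMM) 72 of the 83 members had a lower and 11 a higher mean in knockouts, at a median log2 fold change of −0.148, compared with a median of 0.009 and 50.9% higher among all genes tested. This direction depended on the scale, and without normalization factors 66 members were higher and 17 lower with a median of 0.104. With library totals taken outside the 50 most abundant genes, also without factors, 12 were higher and 71 lower with a median of −0.135. On the first of these scales the median of all genes tested also moved, to 0.246, and the difference between the medians was −0.142, compared with −0.157 on the TMM scale. In plain shares of the library the members together took 0.561%, 0.473%, 0.383% and 0.396% of counts in controls 1 to 4 and 0.56%, 0.614%, 0.23% and 0.561% in knockouts 1 to 4. These shares overlap, and knockout 3 was the lowest and knockout 2 the highest library. In normalized CPM the sums were 4902, 5188, 4676 and 4506 in the controls and 4387, 4612, 3647 and 4629 in the knockouts. The groups overlap here as well, with 4818 ± 295 against 4319 ± 461 (SD, n = 4 each), a ratio of 0.896, which was 0.943 without knockout 3.

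The tests bounded the changes of most members. For 77 of the 83 (92.8%) the 95% confidence interval of the fold change lay within 2-fold in both directions, and for 41 within 1.5-fold. Of all genes tested 45.6%, and of those that averaged 10 CPM or more 83.2%, were bounded within 2-fold. Both of these backgrounds had lower median levels than the members. The log2 fold changes of the members ran from −0.60 (Atp5s) to 1.18 (Cox6b2), and 81 of 83 were smaller than 0.5 in size. Knockouts did not overlap controls for 3 members, each lower in knockouts, against 1.93% of all genes tested in this direction and 2.59% in the other.

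**Figure D3:**
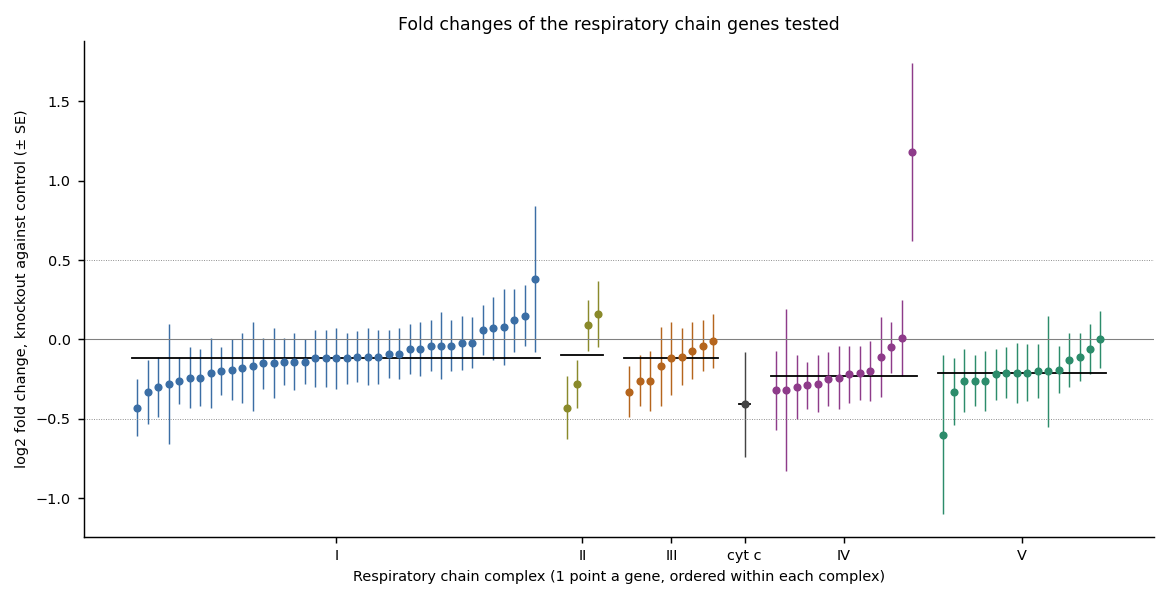
The log2 fold change of knockouts against controls for the 83 genes tested on the TMM scale, with its standard error, ordered within each complex, a black line at the median of the complex and dotted lines at 0.5 and −0.5. Most points lie a little below 0 (without normalization factors 66 of them were above it), and Cox6b2 at 1.18 and Atp5s at −0.60 lie past the dotted lines with the wide errors of genes with few counts.

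Among the 39 tested genes of complex I, 6 were higher and 33 lower on the TMM scale, at a median log2 fold change of −0.12 and a range of −0.43 to 0.38. The median was −0.05 without knockout 3 (13 higher and 26 lower), −0.071 without control 2 and 0.138 without normalization factors. Of the 39 genes, 29 were accessory subunits, 4 higher and 25 lower, and the 95% interval of each of the 29 lay within 2-fold. Ndufb10, an accessory subunit of the membrane arm, was the gene at an unadjusted p under 0.05. Its levels were 43.9, 54.6, 42.2 and 41.2 CPM in controls 1 to 4 and 29.7, 28.1, 41.5 and 36.1 in knockouts 1 to 4. Knockout 3 reached into the range of the controls, and the other 3 knockouts lay below it. The log2 fold change was −0.43 (SE 0.18, unadjusted p = 0.0356 and adjusted p = 0.67 by edgeR), and −0.54 without knockout 3 (adjusted p = 0.198). Thus the gene did not pass with or without this library.

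The catalytic core of complex I was represented by 7 tested genes, of which 1 was higher and 6 lower. Ndufv1, which binds the flavin that takes electrons from NADH, had 25.7, 28, 25.3 and 27 CPM in controls and 21.6, 21.8, 24.4 and 20.7 in knockouts. Ndufs8, which carries iron-sulphur clusters, had 38.7, 44.1, 37.8 and 43 CPM in controls and 33.7, 37.6, 37.6 and 34 in knockouts. For both genes all 4 knockouts lay below all 4 controls, by a narrow margin between the nearest libraries. The log2 fold changes were −0.26 (SE 0.15) and −0.20 (SE 0.15), with adjusted p of 0.84 and 0.9 by edgeR. A further core gene, Ndufv2, was at 69.2, 58.9, 56.3 and 56.2 CPM in controls and 57, 65.4, 23.1 and 67.4 in knockouts. Here 3 knockouts lay within the range of the controls, and knockout 3 was far below it. Its log2 fold change of −0.17 turned to 0.07 without knockout 3.

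Ndufa5, an accessory subunit of the peripheral arm, had 71.5, 52.5, 51 and 38.6 CPM in controls and 45, 48, 38.2 and 38.5 in knockouts, with overlap between the groups at knockouts 1 and 2 and control 4 (log2 fold change −0.33, SE 0.20, and −0.156 without control 1). Ndufv3, an accessory subunit of the NADH-binding module, had 51.8, 69.9, 52.7 and 43.7 CPM in controls and 46.6, 45.7, 35.2 and 48.9 in knockouts (−0.30, SE 0.19, and −0.167 without control 2). For Ndufv3 the range of the controls held 3 of the knockouts. Ndufb4c, a copy of Ndufb4, had the highest log2 fold change of complex I, 0.38 (SE 0.46), at between 0.589 and 2.26 CPM, and 0.64 without knockout 3. Reads of such copies and of their source genes may be split by the unique mapping, so these low values are uncertain.

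Complex II had 4 genes, all encoded in the nucleus, of which 2 were higher and 2 lower. Sdha, which holds the flavin, had 38.7, 38.1, 36.6 and 48.7 CPM in controls and 45.6, 44.1, 39.4 and 43.4 in knockouts (log2 fold change 0.09, SE 0.16). Sdhb, the iron-sulphur subunit, had 35.5, 57.4, 48.3 and 60.1 CPM in controls and 48.2, 44.6, 68.1 and 63.6 in knockouts (0.16, SE 0.21, and 0.05 without knockout 3 or 0.023 without control 1). Both catalytic genes overlapped between the genotypes, and knockout 3 was not their lowest library. The membrane anchors had negative fold changes. Sdhc was at 32.9, 47.9, 31.2 and 32.7 CPM in controls and 27.5, 33.6, 21.8 and 24.5 in knockouts, where knockout 2 exceeded 3 of the controls (−0.43, SE 0.20, adjusted p = 0.747 by edgeR, and −0.267 without control 2). Sdhd was at 65.1, 61.2, 71.6 and 69.8 CPM in controls and 50.8, 49.9, 58.9 and 61.3 in knockouts, with knockout 4 just above control 2 (−0.28, SE 0.15, adjusted p = 0.817 by edgeR). The sum over complex II was 193.9 ± 17.6 CPM in controls and 181.4 ± 10.7 in knockouts (SD, n = 4 each).

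All 9 genes of complex III had a negative log2 fold change on the TMM scale, between −0.33 and −0.01 with a median of −0.12, and none passed. Without knockout 3, 2 were higher and 7 lower, at a median of −0.14. The median was −0.052 without control 2 and 0.104 without normalization factors. Uqcrh, the hinge protein next to cytochrome c1, had the lowest value. It had 125.5, 120.6, 107.7 and 95.6 CPM in controls and 91.2, 97.7, 73.9 and 94.5 in knockouts, where knockout 2 lay above control 4. The log2 fold change was −0.33 (SE 0.16, adjusted p = 0.779 by edgeR). Uqcr11, a small subunit, had 65, 71, 55.7 and 50.2 CPM in controls and 50.6, 53.5, 48.7 and 49.5 in knockouts (−0.26, SE 0.16). Cyc1, the haem protein that passes electrons to cytochrome c, had 49.4, 46, 33 and 32.9 CPM in controls and 37.5, 33.9, 27.6 and 35.5 in knockouts (−0.26, SE 0.19, and −0.145 without control 1). For Uqcr11 only control 4 lay in the range of the knockouts, and for Cyc1 controls 3 and 4 did. Uqcrfs1, the Rieske iron-sulphur protein, was at −0.01 (SE 0.17), and its sign changed in some of the alternatives.

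Cycs, the electron carrier itself, spread most through knockout 3. It had 9.05, 8.99, 10.2 and 7.68 CPM in controls and 6.2, 9.62, 2.71 and 8.15 in knockouts. Only knockouts 1 and 3 lay below all controls, and knockout 3 was at 0.339 times the mean of the other knockouts. The log2 fold change was −0.41 (SE 0.33, adjusted p = 0.915 by edgeR), −0.17 without knockout 3 and −0.638 without knockout 2.

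Of the 14 tested genes of complex IV, 2 were higher and 12 lower on the TMM scale. The 2 higher were Cox6b2 and, at 0.01, Cox5a. The median log2 fold change of −0.23 was −0.1 without knockout 3 (4 higher and 10 lower) and 0.048 without normalization factors. Cox7a2l, which links complexes III and IV in supercomplexes, was the third gene with separate groups. It had 40.7, 38.2, 39 and 33.1 CPM in controls and 32.4, 32.2, 27.8 and 30.7 in knockouts, where control 4 and knockout 1 are almost equal. The log2 fold change was −0.29 (SE 0.15, adjusted p = 0.788 by edgeR). The most abundant genes per kb, Cox6b1 and Cox8a, had log2 fold changes of −0.20 (SE 0.19) and −0.28 (SE 0.18) with overlapping groups, which became −0.07 and −0.18 without knockout 3. Cox7b, the general form beside Cox7b2, was at −0.25 (SE 0.17), and at −0.16 without knockout 3.

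Cox6a1, the general form of subunit VIa, had the lowest log2 fold change of complex IV, −0.32 (SE 0.25). Its levels were 106.2, 130.7, 89 and 78.2 CPM in controls and 92.9, 99.5, 46.2 and 83.8 in knockouts. The other 3 knockouts lay within the range of the controls, and the log2 fold change was −0.137 without knockout 3 and −0.181 without control 2. Cox6b2, a testis form of Cox6b1, was the only member with a log2 fold change above 0.5. It had 19, 5, 3 and 4 counts in controls and 19, 26, 9 and 23 in knockouts, and control 1 was within the range of the knockouts. The log2 fold change of 1.18 (SE 0.56, unadjusted p = 0.0575, adjusted p = 0.75 by edgeR) was 1.93 without control 1 (adjusted p = 0.513) and 1.24 without knockout 3. Control 1 was the only control that met the filter on low counts. Without it the gene entered the test through the knockouts alone, where it is high, so that value is no support for a change. Cox6b2 made up at most 0.763% of the summed level of Cox6b1 and Cox6b2 per kb. Cox7a1, the muscle form, was at 3.52, 2.71, 4.5 and 1.82 CPM in controls and 1.31, 2.77, 0.943 and 4.87 in knockouts, so that the groups overlap almost fully.

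In complex V, 1 of 16 tested genes was higher and 15 were lower on the TMM scale, at a median log2 fold change of −0.21. This median was −0.13 without knockout 3 (2 higher and 14 lower) and 0.063 without normalization factors. The 10 genes of the membrane part and the stalks lay between −0.33 and 0.00, and the 5 of the F1 head between −0.26 and −0.06. Atp5b, the catalytic beta subunit, had 209.2, 234.7, 203.6 and 210.7 CPM in controls and 211.1, 222.8, 169.4 and 220.7 in knockouts (−0.06, SE 0.16, and 0.02 without knockout 3), and Atp5a1, the alpha subunit, 140.4, 137.6, 141.5 and 152.2 in controls and 132, 143.6, 126.3 and 126.4 in knockouts (−0.11, SE 0.15). Both genes overlapped between the genotypes, and the within-genotype SD of Atp5a1 was 0.08 on the log2 scale. Atp5g3, the main c subunit gene, had 130.2, 127.1, 126.2 and 126.2 CPM in controls and 104, 127, 69.8 and 123.7 in knockouts (−0.26, SE 0.20, and −0.11 without knockout 3). Thus the controls were close to each other and the knockouts spread from below to within their range. Atp5h, a subunit of the peripheral stalk, had 40.4, 45.6, 31.8 and 30.4 CPM in controls and 32.4, 32.1, 20 and 32.9 in knockouts (−0.33, SE 0.21), and its fold change was −0.196 without knockout 3. Atp5j2, the f subunit, had 106.2, 102.6, 93 and 80.4 CPM in controls and 77.4, 87.1, 72.5 and 82.8 in knockouts (−0.26, SE 0.16), where control 4 lay below knockouts 2 and 4. Atp5j, another stalk subunit, was at 0.00 (SE 0.18). Atp5s had a log2 fold change of −0.60 (SE 0.50), the lowest of the members with all libraries, −0.30 without knockout 3 and −0.335 without control 4, at 6.79, 2.63, 7.2 and 10.1 CPM in controls and 4.23, 6.91, 1.06 and 5.17 in knockouts.

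**Figure D4:**
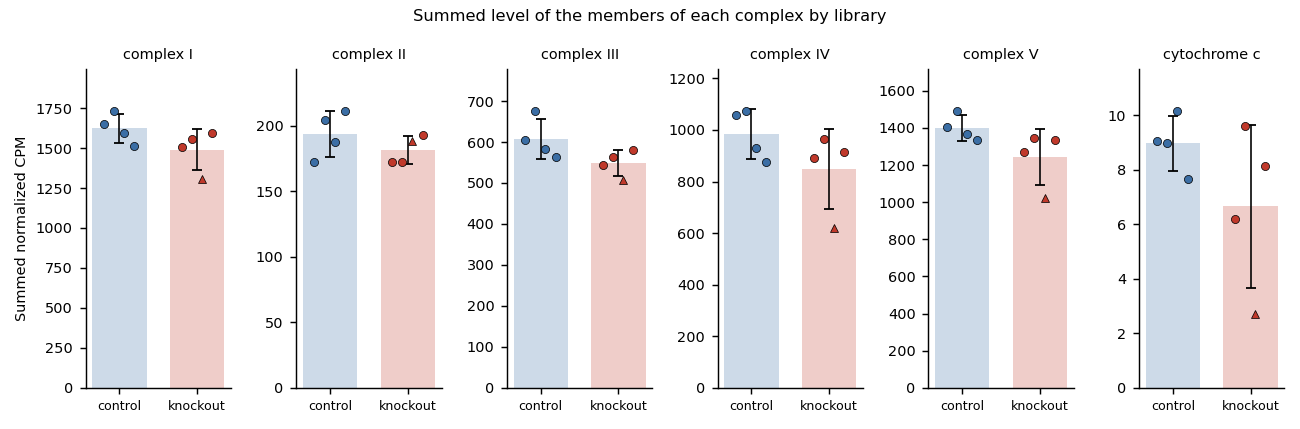
Summed normalized CPM of the members of each complex in every library (points), with the mean of 4 libraries (bar) and its SD (line), and knockout 3 as a triangle. The ranges of the genotypes overlap in every panel, and without knockout 3 the ratio of knockouts to controls was between 0.89 (cytochrome c) and 0.956 (complex I).

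Knockout 3 was the lowest library for 56 of the 83 members (67.5%), compared with 31% of all genes tested and 29.1% of those that averaged 10 CPM or more. It lay below the mean of the other knockouts for 61 members and below 0.5 times that mean for 7. Relative to the mean of the other knockouts its sum was 0.67 for complex IV, 0.779 for complex V, 0.841 for complex I, 0.901 for complex III and 1.05 for complex II. These 7 were Atp5s (log2 difference −2.36), Ndufb4c (−1.87), Cox7a1 (−1.66), Cycs (−1.56), Ndufv2 (−1.45), Cox7c (−1.10) and Uqcrb (−1.06). In contrast, Uqcrc2, a core protein of complex III, was at 0.64, Ndufb10 at 0.41 and Sdhb at 0.39 on the same scale. The difference was thus unequal among members of the same complex. In the same library the 6 enterocyte markers took 0.00166%, the 4 stem cell markers 0.012% and the 3 tuft cell markers 0.0026% of counts, the lowest shares of the 8 libraries, and the Paneth cell markers took 60.5%, the highest. These are shares of raw counts, whereas the levels of the members above are normalized. In normalized CPM the tuft cell markers were lowest in another knockout, at 35.96 against 41.24 in knockout 3. In controls the shares of the enterocyte, stem cell and tuft cell markers ran from 0.00782% to 0.0314%, from 0.0458% to 0.142% and from 0.00686% to 0.0257%. The highest shares among knockouts were 0.0231%, 0.0963% and 0.0208% in this order, each below the highest of the controls. The 6 enteroendocrine markers took 0.0137% to 0.0483% in controls and 0.00194% to 0.0208% in knockouts, with knockout 3 at 0.00813%. The part of these cells in the levels of the members was not tested. In bulk samples, fewer cells of a type and less RNA per cell cannot be told apart. Without knockout 3, 23 members were higher and 60 lower, at a median log2 fold change of −0.11. The remaining 3 knockouts lay below all controls for 5 members (Ndufs8, Ndufb10, Ndufv1, Ndufs1 and Cox7a2l) and above them for 1 (Ndufb4c), against 4.7% and 6.32% of all genes tested.

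The libraries fall into 2 sets by the runs of numbers in their labels, each with 2 controls and 2 knockouts. Within set 1 alone the median log2 fold change of the members was −0.178, with 67 lower and 16 higher, and within set 2 alone it was −0.13, with 66 lower and 16 higher of 82. At an unadjusted p under 0.05, 7 members were lower within set 1 and none within set 2, against 5.36% and 2.01% of all genes fitted in these sets. Ndufb10 was the first of the 7 (−0.77, SE 0.19, adjusted p = 0.122 by edgeR), and the others were Ndufb7, Cyc1, Uqcr11, Uqcrc1, Uqcrh and Atp5h at between −0.38 and −0.44. With the library set as a term in the fit of all libraries, Ndufb10, Sdhc and Uqcrh were lower and Cox6b2 higher at that level, against 3.3% and 4.61% of all genes tested, and none passed after adjustment. Compared only with the controls of their own set, knockouts lay below controls in both sets for 11 members, against 4.45% of all genes tested, and above them for none, against 4.43%. These were Ndufv1, Ndufs8, Ndufa5, Sdhd, Uqcrh, Uqcr11, Cox7a2l, Cox8a, Cox6c2, Atp5g2 and Atp5g3, so that the overlaps given above for Ndufa5, Sdhd, Uqcrh, Uqcr11, Cox8a and Atp5g3 are between libraries of different sets. On the scale without normalization factors the numbers were 0 below (1.21% of all genes tested) and 2 above (7.24%).

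Of the members on chromosome 9, which also carries Kmt2a, Sdhd lay nearest, 5.72 Mb away. Cox5a lay at 12.64 Mb, Cox7a2 at 34.87 Mb and Uqcrc1 at 64.06 Mb. Their log2 fold changes were −0.28, 0.01, −0.05 and −0.11 in this order, and none passed.

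The partners of these genes in the same pathway were examined with lists of 53 assembly factors, 13 protein genes of the mitochondrial genome, 13 enzymes of the citric acid cycle and 12 regulators of mitochondrial gene expression. None of their genes passed both thresholds or had an adjusted p of at most 0.1. Of the 13 mitochondrially encoded genes, 2 were higher and 11 lower at a median of −0.31 for the log2 fold change (−0.18 without knockout 3 and −0.02 without normalization factors), and their summed level was 2.71, 3.01, 3.47 and 3.07 times that of the nuclear members in controls 1 to 4 and 2.81, 2.2, 2.84 and 4.37 times in knockouts 1 to 4. These ratios overlap, with a knockout at either end. Among the citric acid cycle enzymes 5 were higher and 8 lower, with a median of −0.05 and all 13 bounded within 2-fold. That median was 0.04 without knockout 3 (7 higher and 6 lower) and 0.22 without normalization factors.

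Of the 50 tested assembly factors, 15 were higher and 35 lower, on the TMM scale, with a median of −0.09 (−0.02 without knockout 3, with 23 higher and 27 lower, and 0.19 without normalization factors), and 4 had an unadjusted p under 0.05, a level that 6.88% of all genes tested reached. Groups did not overlap for 2 of the 50, and for 4.52% of all genes tested. Cox15, which makes the haem a of complex IV, had 7.8, 8.04, 8.73 and 11.3 CPM in controls and 6.2, 5.99, 5.42 and 5.72 in knockouts, without overlap (log2 fold change −0.62, SE 0.23, adjusted p = 0.581 by edgeR). Tmem126b, an assembly factor of complex I, had 3.14, 3.9, 3.69 and 4.91 CPM in controls and 6.26, 5.47, 11.4 and 6.02 in knockouts, also without overlap (0.89, SE 0.31, adjusted p = 0.531 by edgeR). Knockout 3 was the highest library of Tmem126b. Atpaf1, a chaperone of the ATP synthase head, and Taco1, a translational activator of complex IV, had log2 fold changes of −1.06 (SE 0.46) and 1.41 (SE 0.62) with overlapping groups. The groups of Atpaf1 overlap between the library sets but not within a set, and those of Taco1 overlap within set 2. Without knockout 3 the log2 fold changes of Atpaf1 and Taco1 were −0.85 and 0.86, and those of Cox15 and Tmem126b −0.59 and 0.60. Of 12 regulators 4 were higher and 8 lower on the TMM scale, with a median of −0.09 (−0.02 without knockout 3 and 0.15 without normalization factors). Ppargc1a, the coactivator PGC-1α of mitochondrial biogenesis, had 4.28, 3.74, 2.07 and 1.66 CPM in controls and 2.09, 1.33, 0.589 and 1.34 in knockouts. Its groups overlap through knockout 1 of set 1 and controls 3 and 4 of set 2, but not within a set (−1.11, SE 0.48, and −0.90 without knockout 3, unadjusted p = 0.0382, adjusted p = 0.675 by edgeR).

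**Figure D5:**
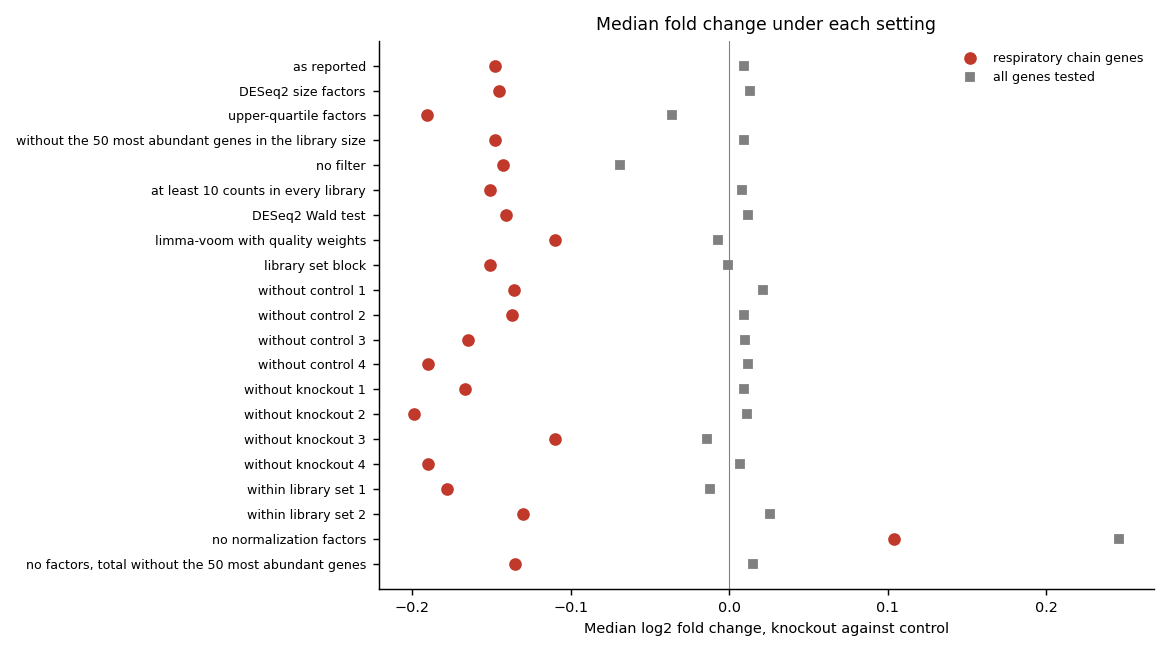
Median log2 fold change of the respiratory chain genes (circles) and of all genes tested (squares) under each setting. The circles lie left of the squares in every row, with differences of medians from −0.21 to −0.074, and the circle lies to the right of 0 in a single row, without normalization factors.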

How the data were processed

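RNA of 300 sorted Paneth cells per mouse was copied into cDNA and amplified by PCR with Smart-seq2, a method that starts from poly(A) tails. The authors aligned reads to mm10 with GSNAP and counted uniquely mapped reads per Ensembl release 92 gene with featureCounts 1.6.3 (reads were written with bcl2fastq 2.19.1, per the submitters' processing notes). The authors deposited raw counts, 1 whole number per gene and library, not normalized. PCR copies were counted separately, so limits drawn from counts cover counting error only. The 92 spike-in rows were left out.

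Genotypes are those of the sample labels, and replicate numbers are names. Of the 53801 Ensembl identifiers, 53620 had a symbol. The tools were edgeR 4.0.16, DESeq2 1.42.0 and limma 3.58.1, under R 4.3.3. Genes passing filterByExpr (minimum count 10, minimum total 15) were fitted with TMM factors, robust quasi-likelihood and Benjamini-Hochberg adjustment over all 13439. The SE is the log2 fold change divided by the square root of F, and the 95% interval uses the t distribution of the same fit. The methods of the study name DESeq2, here an alternative. No gene set was tested. The functions were tested on simulated data.

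The members and lists were chosen with earlier results of these data known. Named are the 12 members with the smallest p, the 2 highest per kb in each complex, the highest and lowest fold change in complexes I, III, IV and V, the Sdh genes, Cycs and Cyc1, listed isoforms, members on chromosome 9 and pathway genes at an unadjusted p under 0.05. Other genes were named after their values were seen, among them Ndufs8, Ndufs1, Ndufv2, Ndufb7, Cox7c, Uqcrb, Uqcrc2, Atp5b and Atp5a1. No 2 libraries agreed within sampling noise (smallest chi-square per degree of freedom 12.13). A number that appears in the labels of both control 4 and knockout 4 was not used to pair them, since its meaning is not given. Alternatives were other scalings, filters and tests, the library set as a term, and each library left out. The fits within a library set and without normalization factors, and the overlap of groups within a set, were chosen after seeing the data.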

Additional observations from a re-analysis of the deposited data

Results flagged for a closer look

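In 90 groups of 4 libraries (the named members and the sums of complexes in each genotype), the highest or lowest library was set against the gap to its neighbour divided by the range of the group, and 7 groups exceeded Dixon's 95% critical value for 4 values. About 1 in 20 groups would be expected to do so by chance. In knockout 3, Atp5h was low at 20.03 CPM, Ndufb4c at 0.5891 CPM and Uqcr10 at 71.28 CPM, each below the 3 other knockouts. In control 1, Cox5a was low at 21.44 CPM and Cox6b2 high at 1.195 CPM. Sdhc was high in control 2 at 47.91 CPM, and Sdha was high in control 4 at 48.69 CPM. Of the exon bases of Cox5a, 12.8% are shared with another gene.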

How the results depend on the processing

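No member passed both thresholds in any setting tried, and the smallest adjusted p of any member ran from 0.122 within library set 1 to 0.999 within library set 2. The number of members lower at an unadjusted p under 0.05, 1 as reported, was 2 with upper-quartile factors and with no filter, 3 with limma-voom and with the library set as a term, 7 within library set 1, 0 within library set 2 and 0 without normalization factors. The gene added with no filter was Cox7b2, with 7 counts in control 1 and none in the other libraries. The number higher, 0 as reported, was 1 with limma-voom and 1 with the library set as a term. Shares of all genes at that level were determined for the fit as reported, for the library set as a term and, for the number lower, for each set alone. Counts in the other settings, those with a library left out included, have no such share beside them. With a library left out in turn, the number lower was 0 to 3, the number higher 0 to 1 and the median log2 fold change of the members −0.199 to −0.11. No member was lower at that level without control 1, control 2 or knockout 1, and 1 was higher, Cox6b2, without control 1. In that fit Cox6b2 met the filter on low counts only through knockouts, where it is high. The median of −0.148 kept its sign in all these fits and became 0.104 without normalization factors, where the median of all genes was 0.246. Relative to the median of all genes it lay between −0.21 and −0.074 in all settings, and the cause of the differences was not tested. Among the 38 named members tested, the sign of Cox7a2, Ndufa1, Uqcr10, Uqcrfs1, Atp5j, Cox5a and Sdhb changed with another scaling, filter or test or with a library left out, and without normalization factors the sign changed for 16 of the 38 and for 55 of the 83. The methods of the study call mice of the 2 genotypes littermates, but the labels do not say which mice shared a litter. The genotypes share only 1 number in their labels, and no paired analysis was run beside the fit with the library set as a term.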

Other observations

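The rows left out by the rule were looked at after the values were seen. Ndufb1-ps, whose symbol marks a pseudogene, had between 314 and 1586 counts per library, with the lowest count in knockout 3. The other rows with such symbols were lower, Uqcrh-ps2 at 83 to 183, Atp5c1-ps at 48 to 217 and Atp5k-ps2 at 59 to 178 counts. Unique mapping decides how reads are split between such rows and the genes they resemble.

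Cs, the gene of the citric acid cycle enzyme citrate synthase, had 36.2, 34.1, 34.9 and 37.1 CPM in controls and 37.5, 37.2, 37.8 and 37.6 in knockouts. On the TMM scale the groups do not overlap, as for 2.59% of all genes tested in this direction, and the log2 fold change was 0.08 (SE 0.14, adjusted p = 0.979 by edgeR). Knockout 3, the lowest library for most respiratory chain genes, was the highest for Cs on this scale, by a narrow margin. Its TMM factor was 0.6316, against 0.8213 to 1.337 elsewhere, so this order and the separation depend on the scale. The gene was named after its values were seen.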
